A study of Mus musculus with 4 samples.

Results

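The 10 genes described here encode heat shock proteins and molecular chaperones: Hspa1a, Hspa1b, Hspa8, Hsph1, Dnajb1, Dnaja1, Hsp90aa1, Hsp90ab1, Hspd1 and Hspe1. The genes were chosen by name as a family, with earlier results of these data known. They are 10 of the 14934 genes in the deposited count table, and all 10 passed the filter on low counts, which kept 11563 genes. Their transcripts were measured by bulk RNA sequencing in CD8 T cells that had infiltrated hepatocellular carcinoma in mice and were separated by flow cytometric sorting. The control group was JAML-negative CD8 T cells and the other group JAML-positive CD8 T cells, with 2 libraries (replicates A and B) in each. JAML is the junctional adhesion molecule-like protein, a receptor at the cell surface. Both groups carry the WT genotype and were given no treatment that the labels name, so JAML was neither added nor removed, and the groups are 2 gates of a sort. Whether A and B are animals, pools or sorts is not given in the sources used here, nor are the tumour model, strain, age and sex. P-values therefore rest on how far these 4 libraries spread, and that spread may be purely technical.

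Chaperones bind unfolded stretches of other proteins and keep them from clumping while they fold, refold or are handed to degradation. HSP70 proteins do this in a cycle driven by ATP, in which J-domain proteins (the HSP40 family) deliver the client and HSP110 proteins release the nucleotide, and HSP90 takes up clients that are closer to their final fold, among them kinases of T cell receptor signalling. Heat shock factor 1 switches on the inducible members after heat, oxidative or proteotoxic stress, while Hspa8 and Hsp90ab1 are made at high levels in unstressed cells. Inducible heat shock genes are also known to respond to tissue dissociation and sorting, which every library of this study went through.

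Library totals were 27530187 to 30569728 counts, and 12069 to 12527 genes had at least 1 count. Ribosomal protein genes took 12.2% of the counts of JAML-positive replicate A and 7.49% to 8.36% of the other 3 libraries. Markers of CD8 T cells summed to 3879 to 4427 CPM (counts per 1000000, here on the TMM scale, which corrects totals for composition) in all 4 libraries, with 7 of 8 markers in the table and Trac not analysed here. Jaml itself, the transcript of the sorted protein, was at 131 (A) and 117 (B) CPM in JAML-negative and 138 (A) and 147 (B) CPM in JAML-positive cells. Its log2 fold change of 0.20 ± 0.26 (SE) did not pass edgeR's quasi-likelihood test (adjusted p = 0.881).

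The promoters of the members were searched for the letters of the heat shock element, the DNA through which heat shock factors act. RefSeq promoter windows of GRCm38.p6, from 250 bases before to 50 bases after a transcription start, were at hand for 7 of the 10 members, and Hspa8, Hsp90aa1 and Hsp90ab1 had none. A heat shock element is built of inverted 3-base units, and it was searched on both strands as 2 adjoining units, spelled GAANNTTC or TTCNNGAA. Of the 7 members, 6 had a match in at least 1 window, against 17.0% of all 27025 genes with windows. The 7 members had 12 windows and the 27025 genes 32851, so the members had more windows per gene in which any motif could match. The longer form of 3 adjoining units, GAANNTTCNNGAA or TTCNNGAANNTTC, contains the shorter one and was found in Hspd1, Hspe1 and Hsph1, against 0.662% of genes. Dnajb1 was the member with a window and no match. The 4 windows printed here carry the inducible HSP70 pair, the chaperonin promoter and the HSP110 promoter, 5′ to 3′ on the gene's strand, with each 2-unit match in capitals.
Hspa1a, chr17:34972107-34972406, minus strand: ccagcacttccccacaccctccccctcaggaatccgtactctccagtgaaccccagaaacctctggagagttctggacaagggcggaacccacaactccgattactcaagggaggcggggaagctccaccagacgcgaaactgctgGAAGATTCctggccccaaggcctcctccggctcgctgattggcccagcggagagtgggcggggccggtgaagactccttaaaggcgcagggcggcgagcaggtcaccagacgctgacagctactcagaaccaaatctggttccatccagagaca
Hspa1b, chr17:34959189-34959488, minus strand: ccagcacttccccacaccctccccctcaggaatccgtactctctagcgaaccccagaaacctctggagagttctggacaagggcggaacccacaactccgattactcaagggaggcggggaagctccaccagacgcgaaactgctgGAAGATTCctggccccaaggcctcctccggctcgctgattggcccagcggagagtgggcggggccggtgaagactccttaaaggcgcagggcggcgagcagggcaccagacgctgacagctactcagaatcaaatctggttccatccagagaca
Hspe1, chr1:55087898-55088197, plus strand: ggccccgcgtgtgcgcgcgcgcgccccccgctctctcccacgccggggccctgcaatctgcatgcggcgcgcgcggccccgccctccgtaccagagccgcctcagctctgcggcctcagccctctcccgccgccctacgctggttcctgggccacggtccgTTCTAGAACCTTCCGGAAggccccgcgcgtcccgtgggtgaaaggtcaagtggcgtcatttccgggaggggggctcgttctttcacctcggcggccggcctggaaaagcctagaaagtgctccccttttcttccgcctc
Hsph1, chr5:149636287-149636586, minus strand: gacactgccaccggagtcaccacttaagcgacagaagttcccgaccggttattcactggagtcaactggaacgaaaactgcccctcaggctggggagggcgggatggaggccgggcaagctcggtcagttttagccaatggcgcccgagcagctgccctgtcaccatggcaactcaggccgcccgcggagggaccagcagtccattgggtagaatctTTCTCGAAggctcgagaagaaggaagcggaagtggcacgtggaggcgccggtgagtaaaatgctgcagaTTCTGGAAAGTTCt

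The Hspa1a and Hspa1b windows were 98.7% identical over their 300 bases. They differed by C44T, T47C, T249G and C276T, with the Hspa1a base first and positions counted from the 5′ end of the window. Both carry the same single match, which starts 104 bases before the transcription start, so Hspa1a and Hspa1b do not count as separate cases. In the Hspe1 window 3 matches overlap into 1 run, starting 89, 84 and 79 bases before the start. Hspd1 is read from the opposite strand and has windows at 2 annotated starts. The window at chr1:55087883-55088182 shares 285 bases and the same 3 matches with that of Hspe1, so the 2 genes do not count as separate cases. The window at the outer end of the gene, chr1:55088194-55088493, has 0 matches. In Hsph1 the matches start 33 bases before and 37 and 42 bases after the start. Dnaja1 had 1 match, 124 bases before one of its annotated starts. A CCAAT box (CCAAT or ATTGG) was in a window of 6 of the 7 members, against 41.1% of genes, and TATAAA or TTTATA was in 0 of the 7, against 15.7%. A match describes the letters of these windows only, and no factor's binding was measured.

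The 10 genes together took 0.984% (A) and 0.977% (B) of all counts in the JAML-negative pair, and 1.01% (A) and 1.06% (B) in the JAML-positive pair. Both JAML-positive shares were above both JAML-negative shares, by a ratio of 1.08 between group means on the TMM scale. Most of this sum came from 3 genes: Hspa8, Hsp90ab1 and Hsp90aa1 held 80.0% of the members' counts. Hspa8 ranked 9 to 14 and Hsp90ab1 ranked 6 to 13 among all genes by counts. Per length, over the 4 libraries, Hsp90ab1 averaged 1464 CPM per kb of the RefSeq-matched GENCODE transcript and Hspa8 1394, and their ranges overlapped (1343 to 1600 and 1322 to 1496). Hsp90aa1 followed at 325, Hspe1 at 197, Hspd1 at 139, Hspa1b at 121, Dnajb1 at 94.9, Dnaja1 at 88.7, Hsph1 at 62.1 and Hspa1a at 57.9 CPM per kb. In that order Hspa8 and Hsp90aa1, Hsp90aa1 and Hspe1, and Hspe1 and Hspd1 did not overlap between neighbours over the libraries, and from Hspd1 downward every gene's range overlapped that of the next. The level plot shows the same genes unscaled by length.

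**Figure D1:**
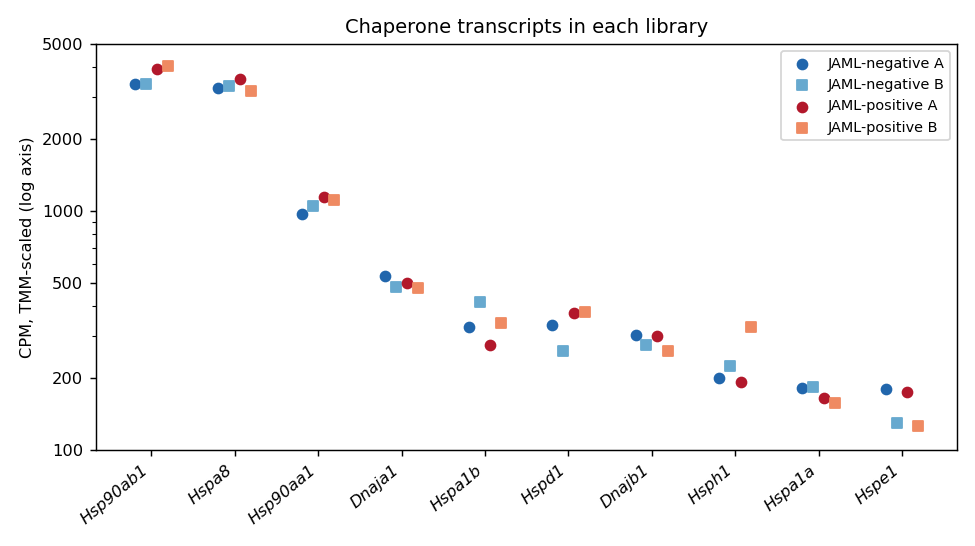
TMM-scaled CPM (log axis) of the 10 chaperone genes, 1 point per library, circles for replicate A and squares for replicate B, blue for JAML-negative and red or orange for JAML-positive. Hsp90ab1 and Hspa8 lie between 3164 and 4032 CPM in every library, and the 4 libraries of most genes lie close together, with Hsph1 in JAML-positive replicate B (326 CPM) the widest departure.

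The comparison asks whether tumour-infiltrating CD8 T cells with JAML at the surface differ from those without it in their chaperone transcripts. None of the 10 passed the edgeR test at an adjusted p of 0.05, with adjusted p from 0.706 to 0.983. Over all 11563 genes the same rule called 0.0%, so the 0 of 10 is no different from the background, and the smallest adjusted p of any gene was 0.227. At an unadjusted p under 0.05 edgeR called 7.65% of all genes and 0 of the 10. DESeq2, run beside it, called 7.65% of all genes at an adjusted p of 0.05, the same number of genes by coincidence, and 0 of the 10. The smallest p of a member in DESeq2 was that of Hsp90ab1, with an unadjusted p of 0.0354 and an adjusted p of 0.225, and it was the single member with an unadjusted p under 0.05. With limma-voom 0 of the 10 passed at an adjusted or an unadjusted p of 0.05.

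The fold changes of the members were small and went both ways. Of the 10, 5 had a log2 fold change (JAML-positive over JAML-negative) above 0 and 5 below, and their median was -0.01, against 0.01 over all genes tested and -0.03 over the 2252 tested genes that averaged at least 100 CPM. For each of the 10 the 95% interval of the fold change lay within 2-fold in either direction. That held for 20.7% of all genes, and for 75.5% of genes of at least 100 CPM, the class to which all 10 belong. The SE of the members' log2 fold changes was 0.18 to 0.29 with a median of 0.22, against a median of 0.26 over genes of at least 100 CPM. Differences inside a gene's own interval could not be told from 0 with these libraries. For 3 members each JAML-positive value exceeded each JAML-negative one: Hsp90aa1, Hsp90ab1 and Hspd1. This is a pattern that 20.3% of all genes had. Both lay below for Hspa1a alone, a pattern that 18.2% of all genes had. The libraries of the 2 groups overlapped for the other 6.

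**Figure D2:**
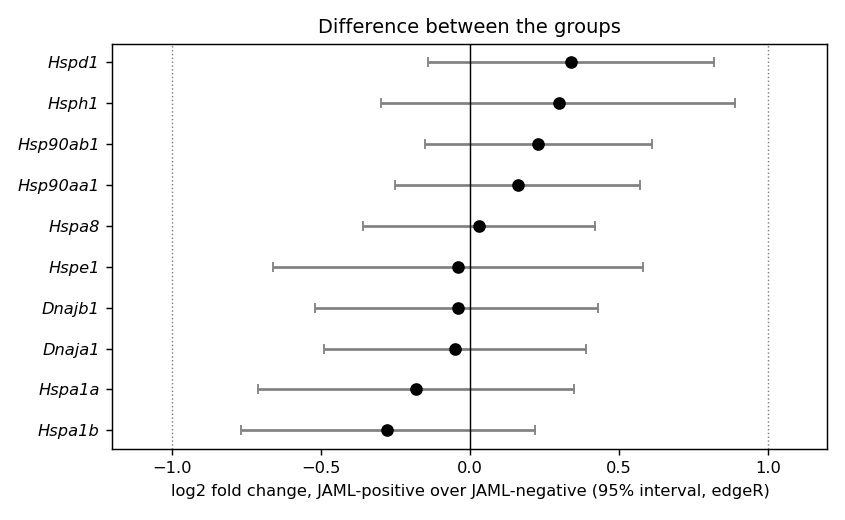
Log2 fold change of each chaperone gene, JAML-positive over JAML-negative, from edgeR, with bars for the 95% interval, each from 2 libraries per group. All 10 intervals span 0, and none reaches 1 or -1 (2-fold).

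The HSP70 proteins of the cytosol were led by Hspa8 (HSC70; Entrez 15481; chromosome 9, 40801276 to 40805202, GRCm38), which is made constantly and handles new and refolding proteins. Its level was 3273 (A) and 3331 (B) CPM in JAML-negative and 3580 (A) and 3164 (B) CPM in JAML-positive cells. JAML-positive B was the lowest library and JAML-positive A the highest, so the groups overlapped. The log2 fold change was 0.03 ± 0.18 (SE), with an interval of -0.36 to 0.42 (edgeR adjusted p = 0.981). Within the JAML-positive pair the level differed 1.13-fold, which exceeds the difference between the group means.

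Hspa1a and Hspa1b encode the stress-inducible HSP70, the classical marker of the heat shock response, and lie next to each other on chromosome 17 (Entrez 193740, 34969359 to 34972156, and Entrez 15511, 34956429 to 34959238), each with a single exon in the GENCODE transcript used here. Hspa1a was at 181 (A) and 184 (B) CPM in JAML-negative and 165 (A) and 158 (B) CPM in JAML-positive cells. Both JAML-positive libraries lay below both JAML-negative ones, by -0.18 ± 0.24 (SE) on the log2 scale (edgeR adjusted p = 0.883). Hspa1b was at 328 (A) and 417 (B) CPM in JAML-negative and 276 (A) and 339 (B) CPM in JAML-positive cells. In Hspa1b JAML-negative B was highest, JAML-positive A lowest, and the other 2 libraries were close to each other across the groups, with a log2 fold change of -0.28 ± 0.23 (SE) and an edgeR adjusted p of 0.783. With 1 library left out the Hspa1b value ran from -0.44 (without JAML-negative A) and -0.43 (without JAML-positive B) to -0.13 (without JAML-positive A) and -0.09 (without JAML-negative B). The 2 coding sequences are 99.4% identical, with 11 differing positions in the alignment, and how reads matching both were counted is not given in the sources used here, so the split between them is uncertain. Their sum avoids that split: it was 509 (A) and 601 (B) CPM in JAML-negative and 441 (A) and 496 (B) CPM in JAML-positive cells. All JAML-negative sums lay above all JAML-positive sums, at a log2 fold change of -0.24 ± 0.21 (SE) when the pair was fitted as 1 gene (edgeR adjusted p = 0.79). Hspa8 exceeded this pair 5.54-fold to 8.12-fold by counts in every library.

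Among the J-domain proteins, Dnajb1 (HSP40; Entrez 81489; chromosome 8, 83608175 to 83612653) is stress-inducible and delivers clients to HSP70 for refolding. It was at 303 (A) and 274 (B) CPM in JAML-negative and 299 (A) and 261 (B) CPM in JAML-positive cells. The A libraries were higher than the B libraries in both groups and the groups overlapped, with a log2 fold change of -0.04 ± 0.22 (SE; edgeR adjusted p = 0.976). Dnaja1 (Entrez 15502; chromosome 4, 40722468 to 40734965), a farnesylated partner of HSC70, was at 536 (A) and 480 (B) CPM in JAML-negative and 502 (A) and 477 (B) CPM in JAML-positive cells. The groups overlapped here too, and JAML-negative A was the highest library, with a log2 fold change of -0.05 ± 0.20 (SE; edgeR adjusted p = 0.966). The 2 J-domain genes kept a count ratio of Dnaja1 to Dnajb1 of 1.68 to 1.83 over the 4 libraries.

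Hsph1 (HSP105, an HSP110 protein that exchanges the nucleotide of HSP70; Entrez 15505; chromosome 5, 149616843 to 149636498) had the widest spread of the 10. It was at 201 (A) and 224 (B) CPM in JAML-negative and 193 (A) and 326 (B) CPM in JAML-positive cells. JAML-positive B stood above the other 3 libraries, and JAML-positive A was the lowest of all, a 1.69-fold difference within the group. The log2 fold change of 0.30 ± 0.27 (SE) with an interval of -0.30 to 0.89 (edgeR adjusted p = 0.811) rests on that library: without JAML-positive B it was -0.14, and without JAML-positive A it was 0.63. For comparison, the median fold between replicates over the 10 members was 1.11 in the JAML-negative and 1.09 in the JAML-positive pair. No other member had a high value in that library of this size, and Hspa1a, Hspa8, Dnajb1, Dnaja1 and Hspe1 were at their lowest there.

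The cytosolic HSP90 pair had close values within groups and no overlap between them. Hsp90ab1 (HSP90 beta, constantly made; Entrez 15516; chromosome 17, 45567778 to 45573261) was at 3384 (A) and 3415 (B) CPM in JAML-negative and 3928 (A) and 4032 (B) CPM in JAML-positive cells. Each JAML-positive value was above each JAML-negative one, and the replicates differed only 1.01-fold and 1.03-fold within the groups. The log2 fold change of 0.23 ± 0.18 (SE), with an interval of -0.15 to 0.61, did not pass (edgeR adjusted p = 0.766). With 2 libraries a group, edgeR takes the spread of a gene largely from that of all genes. Hsp90aa1 (HSP90 alpha, the more inducible form; Entrez 15519; chromosome 12, 110691036 to 110696395) was at 967 (A) and 1049 (B) CPM in JAML-negative and 1141 (A) and 1114 (B) CPM in JAML-positive cells. All JAML-positive values of this gene lay above the others too, at a log2 fold change of 0.16 ± 0.19 (SE; edgeR adjusted p = 0.861), which was 0.10 without JAML-negative A. Hsp90ab1 had 3.26 to 3.62 times the counts of Hsp90aa1, and the groups overlapped. The ratio of HSP90 counts to inducible HSP70 counts (Hsp90aa1 and Hsp90ab1 over Hspa1a and Hspa1b), chosen after its values were seen, was 8.54 (A) and 7.43 (B) in JAML-negative and 11.5 (A) and 10.4 (B) in JAML-positive cells. Those groups did not overlap, and no test was made of the ratio.

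**Figure D3:**
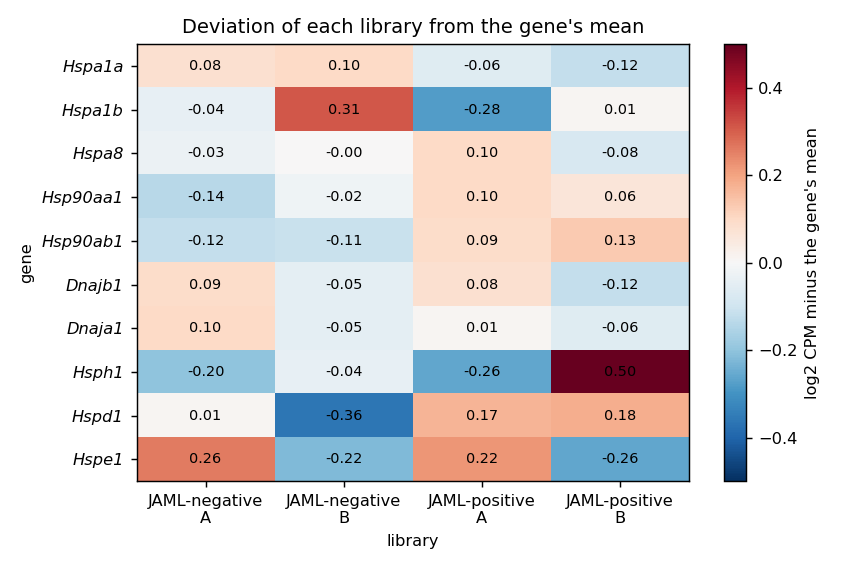
Log2 CPM of each chaperone gene (rows) in each library (columns) minus the gene's own mean over the 4 libraries, red above and blue below that mean. The HSP90 genes are below their mean in both JAML-negative columns and above it in both JAML-positive columns, Hspa1a has the opposite sign, Hspe1 follows the replicate letter, and the value of 0.50 for Hsph1 in JAML-positive B is the largest.

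The chaperonin of the mitochondrial matrix folds imported proteins and is made of HSP60 (Hspd1; Entrez 15510; chromosome 1, 55077833 to 55088243) and its lid HSP10 (Hspe1; Entrez 15528; chromosome 1, 55088148 to 55091317), which lie head to head, the window of one Hspd1 start overlapping that printed for Hspe1. Hspd1 was at 335 (A) and 260 (B) CPM in JAML-negative and 374 (A) and 378 (B) CPM in JAML-positive cells. Each JAML-positive value was above each JAML-negative one, of which B was the lower. The log2 fold change of 0.34 ± 0.22 (SE), with an interval of -0.14 to 0.82, was the largest of the 10 and did not pass (edgeR adjusted p = 0.706). It was 0.18 without JAML-negative B and 0.53 without JAML-negative A. Hspe1 was at 180 (A) and 129 (B) CPM in JAML-negative and 176 (A) and 126 (B) CPM in JAML-positive cells. Its A libraries were 1.39-fold above its B libraries in each group, and the groups overlapped almost fully, at a log2 fold change of -0.04 ± 0.29 (SE; edgeR adjusted p = 0.983). The count ratio of Hspd1 to Hspe1 was 1.86 (A) and 2.01 (B) in JAML-negative and 2.13 (A) and 3.0 (B) in JAML-positive cells, without overlap and without a test. Apart from this ratio and that of HSP90 to inducible HSP70, the ratios taken between members overlapped between the groups.

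**Figure D4:**
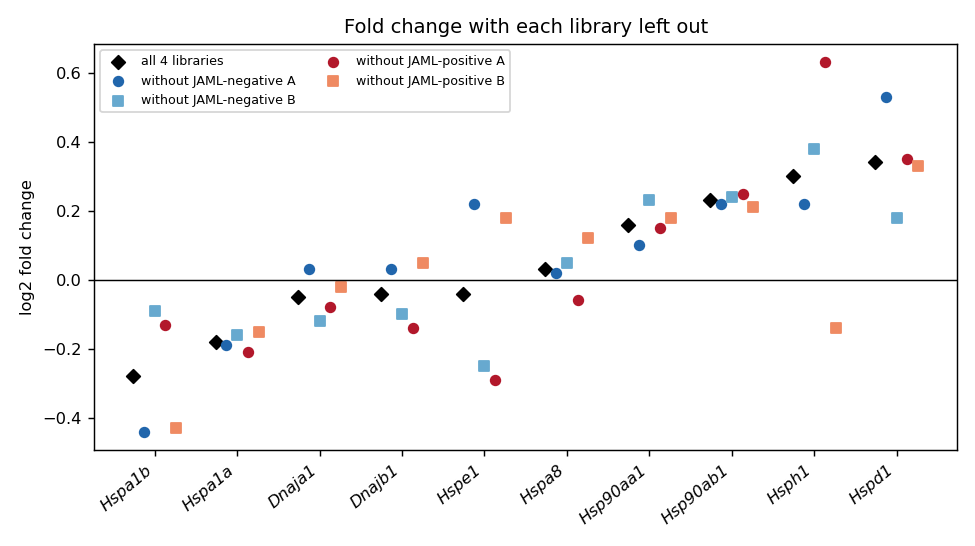
Log2 fold change of each chaperone gene with all 4 libraries (diamonds) and with each library left out in turn (blue for a JAML-negative, red or orange for a JAML-positive library left out). Hspa1a, Hspa1b, Hsp90aa1, Hsp90ab1 and Hspd1 keep their sign in every case, and Hsph1 goes from 0.63 to -0.14.

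The members share annotated functions, and most of them, but not all, have near copies elsewhere in the genome. The deposited annotation gives protein folding to 10 of 10 members (0.855% of annotated tested genes), unfolded protein binding to 8 (0.664%), ATP binding to 9 (9.46%) and cellular response to heat to 5 (0.309%). These shares only describe a list that was chosen by family. Of all 50-base windows of the transcript, 73.2% of those of Hspa8, 62.3% of Hspa1b, 60.3% of Hspa1a, 58.5% of Hsp90aa1, 44.8% of Hspd1 and 36.1% of Hspe1 also occur in another GENCODE M21 gene. The share was 18.7% for Dnaja1, 4.49% for Hsp90ab1, 0.407% for Dnajb1 and 0.0% for Hsph1. For Hspa1a and Hspa1b the main copy is the other gene of the pair, and for Hspa8, Hsp90aa1, Hspd1 and Hspe1 it is a gene not listed in the count table. Levels of these genes are uncertain to the extent that the counting split or dropped such reads. Exons of Hspd1 and Hspe1 overlap by 112 bases on opposite strands, 608 exonic bases of Dnaja1 overlap Smu1 and 564 of Hspa1a overlap Gm20481, also on opposite strands, and without a stated strand setting such reads cannot be told apart.

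The 5 other genes whose 4 values most resembled the mean profile of the members were Mafk, Ik, Gnas, Ftl1 and Ehmt2, out of 5731 genes that averaged at least 30 CPM. Predicted genes (Gm and Rik names) were left out. Their distances from that profile, over the 4 libraries on the log2 scale, were 0.0294 to 0.0557, and their log2 fold changes were 0.03 to 0.06. Mafk, a small Maf transcription factor, was at 120 (A) and 120 (B) CPM in JAML-negative and 122 (A) and 122 (B) CPM in JAML-positive cells. On the centred log2 scale the mean profile of the members ran only from -0.04 to 0.03 over the 4 libraries. That mean hides members that moved in opposite directions, such as Hsph1 at 0.50 and Hspe1 at -0.26 in JAML-positive B.

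The regulators of the response were taken from a list of heat shock factors and their regulators, of which 9 were tested, 6 with a log2 fold change above 0 and 3 below, 0 past the threshold, and a median of 0.05. Hsf1, the master factor of the heat shock response, was at 22.1 (A) and 23.2 (B) CPM in JAML-negative and 36.4 (A) and 28.8 (B) CPM in JAML-positive cells. The groups did not overlap, at a log2 fold change of 0.52 ± 0.53 (SE; edgeR adjusted p = 0.837). Hsf2 was at 25.6 (A) and 25.5 (B) CPM in JAML-negative and 34.1 (A) and 32.9 (B) CPM in JAML-positive cells, also without overlap and not past the test (0.39 ± 0.51, edgeR adjusted p = 0.878). Hdac6, a deacetylase that acts on HSP90, was at 9.77 CPM in JAML-negative A, 0 in JAML-negative B, and 21.5 and 22.3 CPM in the JAML-positive libraries. Its log2 fold change of 2.15 ± 0.98 (SE) thus rests in part on a library without counts. Ep300, an acetyltransferase of heat shock factor 1, was at 225 (A) and 170 (B) CPM in JAML-negative and 112 (A) and 151 (B) CPM in JAML-positive cells, with a log2 fold change of -0.58 ± 0.27 (SE). Neither passed, with an edgeR adjusted p of 0.61 for each.

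The partners and relatives of HSP70 were described by 3 lists. Of 5 other HSP70 and HSP110 proteins tested, 4 had a log2 fold change above 0 (median 0.32). Hspa4l, an HSP110 protein, was at 42.0 (A) and 21.1 (B) CPM in JAML-negative and 63.7 (A) and 72.9 (B) CPM in JAML-positive cells, without overlap (1.11 ± 0.44, SE). Hspa13, an HSP70 relative of the endoplasmic reticulum, was at 28.1 (A) and 3.20 (B) CPM in JAML-negative and 18.0 (A) and 64.1 (B) CPM in JAML-positive cells, and these values overlap. Of 24 other J-domain proteins tested, 9 were above 0 and 15 below (median -0.09). Dnajc2, which acts at the ribosome, was at 98.3 and 119 CPM against 190 and 151 CPM, and Dnajc5, which serves at secretory vesicles, at 244 and 262 CPM against 176 and 193 CPM, in JAML-negative against JAML-positive replicates A and B. Of 11 genes listed as nucleotide exchange and cochaperone factors, 7 were above 0 (median 0.33). They include Cdkn1a, which is not such a factor. Bag3, an inducible exchange factor under heat shock factor 1, was at 44.1 (A) and 28.4 (B) CPM in JAML-negative and 20.2 (A) and 16.2 (B) CPM in JAML-positive cells, at -1.01 ± 0.56 (SE; edgeR adjusted p = 0.627). Stip1, the adaptor that joins HSP70 to HSP90, was at 152 and 146 CPM against 202 and 205 CPM in the same order. In these 3 lists 0 genes passed the edgeR threshold.

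Of 21 HSP90 cochaperones tested, 13 had a log2 fold change above 0, with a median of 0.27, 7 without overlap upward and 3 downward (20.3% and 18.2% of all tested genes), and 0 passed. Ptges3 (p23), which stabilises the closed form of HSP90, was at 74.9 (A) and 79.8 (B) CPM in JAML-negative and 161 (A) and 141 (B) CPM in JAML-positive cells. All values of the JAML-positive group lay above those of the other, at a log2 fold change of 0.96 ± 0.29 (SE; edgeR unadjusted p = 0.0056, adjusted p = 0.61). Fkbp4, an HSP90-bound prolyl isomerase, was at 105 (A) and 84.8 (B) CPM in JAML-negative and 193 (A) and 144 (B) CPM in JAML-positive cells (0.83 ± 0.29, SE). The HSP90 genes themselves had smaller values, 0.23 and 0.16. The lists of inducible targets gave 8 of 13 above 0 (median 0.09), with Fkbp4 and Hspa4l as the genes named there too. Of 11 small heat shock proteins listed, 2 were tested, 1 above and 1 below 0.

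Most genes in the lists of other folding systems had a log2 fold change above 0, where the median over all tested genes was 0.01. Of 15 genes listed for the cytosolic TRiC chaperonin and prefoldin, which fold actin and tubulin, 14 were above 0. Their median was 0.46, and 0 passed the edgeR threshold. Of the 15, which include Pdcl3, a subunit of neither complex, 8 lay higher and 1 lower without overlap. Cct4 was at 298 (A) and 244 (B) CPM in JAML-negative and 439 (A) and 382 (B) CPM in JAML-positive cells (0.60 ± 0.22, SE). Vbp1, a prefoldin subunit, was at 83.2 and 69.7 CPM against 152 and 102 CPM (0.72 ± 0.32, SE). Of 26 genes of the endoplasmic reticulum chaperones and the unfolded protein response, 20 were above 0 (median 0.27), and 0 passed. Of the 26, 11 lay higher and 1 lower without overlap, against 20.3% and 18.2% of all tested genes. Pdia3, a disulfide isomerase that helps load MHC class I, was at 423 (A) and 423 (B) CPM in JAML-negative and 632 (A) and 731 (B) CPM in JAML-positive cells (0.69 ± 0.20, SE; edgeR adjusted p = 0.61). Hsp90b1 (GRP94), the HSP90 of that compartment, was at 600 and 564 CPM against 928 and 780 CPM (0.55 ± 0.20, SE). Of 18 other mitochondrial chaperones and proteases 13 were above 0 (median 0.21) and 0 passed. Only 1 of the 18 lay higher and 0 lower without overlap, against the same shares of all tested genes. Among them Hspa9, the mitochondrial HSP70, was at 229 and 277 CPM against 316 and 309 CPM (0.30 ± 0.22, SE), and Clpp at 9.98 and 0.145 CPM against 23.4 and 7.03 CPM. The difference between these lists and the members was not tested.

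Immediate early genes and cell cycle genes are given beside these values, and why their levels differ between the groups was not tested. Of 21 immediate early genes linked to tissue dissociation, 18 had a log2 fold change below 0, with a median of -0.19, and 0 passed. Without overlap lay 10 lower and 0 higher, against 18.2% and 20.3% of all tested genes. Nr4a1 was at 719 (A) and 835 (B) CPM in JAML-negative and 468 (A) and 569 (B) CPM in JAML-positive cells, and Egr1 at 214 and 207 CPM against 134 and 135 CPM. Of the 10 chaperone genes, 5 were below 0 like these and 5 above. Of 35 cell cycle genes 34 were above 0 (median 0.61), and 0 passed at an adjusted p of 0.05. Without overlap lay 27 higher and 0 lower, against 20.3% and 18.2% of all tested genes. Birc5, which encodes the mitotic protein survivin, was at 55.1 and 59.7 CPM against 144 and 118 CPM, and Cdca3 at 19.6 and 14.6 CPM against 104 and 81.5 CPM.

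Markers of other cell types were low next to those of CD8 T cells, and some differed between the groups. Dendritic cell markers (11 of 11 in the table) summed to 254 (A) and 235 (B) CPM in JAML-negative and 606 (A) and 389 (B) CPM in JAML-positive cells, and Xcr1 and Clec9a were at 0 in at least 1 library. Some genes of this list, among them Cd74 and Bst2, are not confined to dendritic cells, so the sum does not measure their number. Markers of macrophages, monocytes and neutrophils (12 of 14) summed to 86.6 and 81.5 CPM against 211 and 163 CPM. Markers of CD4 T cells (4 of 4) summed to 135 and 155 CPM against 184 and 245 CPM, those of erythrocytes and platelets (5 of 7) to 1.2 and 1.31 CPM against 51.0 and 16.9 CPM, and those of hepatocytes (8 of 10) to 70.8 and 32.5 CPM against 33.5 and 39.1 CPM. Endothelial and fibroblast markers (8 of 8) summed to 129 to 148 CPM over the 4 libraries. NK cell markers (5 of 5) were lower in JAML-positive cells, at 231 and 193 CPM against 183 and 179 CPM, without overlap. The part of these cells, of the immediate early and cell cycle genes and of the ribosomal share of JAML-positive A in the chaperone values was not tested. In bulk samples fewer cells of a type and less RNA per cell cannot be told apart.

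**Figure D5:**
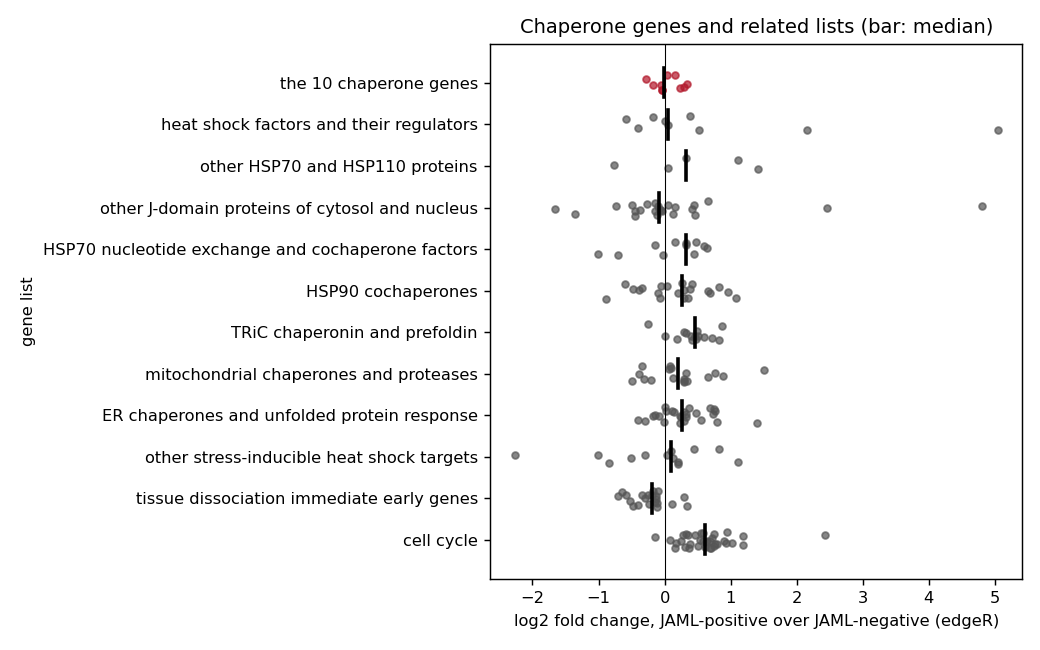
Log2 fold change, JAML-positive over JAML-negative, of each tested gene (points) in the 10 chaperone genes (red) and in 11 related lists (grey), with a black bar at each list's median. The members lie within 0.34 of 0 and centre on -0.01, the TRiC and prefoldin list centres on 0.46 and the immediate early list on -0.19. Hsf4, without counts in both JAML-negative libraries, is drawn at 5.05 (33.0-fold), a value computed with 3 counts per library in place of the zeros. It is no lower bound of the difference. The fitted log2 fold change of Hsf4 was 9.7 ± 4.75 (SE) and did not pass (edgeR adjusted p = 0.61).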

How the data were processed

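The authors deposited 1 table of read counts per gene for all 4 libraries, with gene symbols and Entrez identifiers. These counts are integers and their library totals differ. A SMARTER mRNA-Seq kit turned column-purified total RNA into libraries, per the labels' protocols. Reads were placed on GRCm38 (mm10), per the submitters' processing notes. Not given in the sources used here are the aligner, the counter, its strand and multi-read settings, and the gene models counted.

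Differential expression was tested with edgeR 4.0.16 (R 4.3.3) on all 4 libraries, JAML-positive against JAML-negative, with no covariate. Genes were kept by filterByExpr (minimum count 10) and scaled with TMM factors. The robust quasi-likelihood test was run in the current default method of that version, with Benjamini-Hochberg adjustment over 11563 genes and a threshold of 0.05. The earlier edgeR method had been run first and is kept as an alternative, so the choice between them was made after the data had been seen. The SE was derived from the log2 fold change and the square root of F, and intervals are 95%. The main fit was also run on simulated counts with the same dispersion for every gene. That run does not show how the fits perform on these libraries. DESeq2 1.42.0, limma-voom (limma 3.58.1), other scalings and filters, and leaving out each library were alternatives. Reads carry no molecular identifiers, so the counts are of reads and not of separate molecules. The SE and p-values rest on the spread between libraries and not on counting error alone.

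Genes were placed with RefSeq GRCm38.p6 coordinates by Entrez identifier, which matched 14681 genes (98.3%) and all 10 members. Transcript length, exon overlap and 50-base windows came from GENCODE M21, and promoter windows from RefSeq. The members and the 12 pathway and 9 marker lists were chosen with earlier results of these data known. The result of 1 marker list is not reported here. The text names all members, the 2 genes of smallest unadjusted p in each pathway list among those averaging at least 10 CPM, Hsf1, Hsf2, Jaml and the 5 genes of most similar profile. No list was given a set test. The main fit did not pair the libraries by replicate letter, and the limits below describe what the letters showed.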

Additional observations from a re-analysis of the deposited data

How the results depend on the processing

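No member passed an adjusted p of 0.05 under any of 14 alternatives (adjusted p from 0.225 with DESeq2 to 1.0), and 130 of 138 member values kept their direction. Hspa1a, Hspa1b, Hsp90aa1, Hsp90ab1 and Hspd1 kept it in every alternative. The 8 values on the other side of 0 were those of Hspa8 with library totals only (-0.00) and without JAML-positive A (-0.06), Dnajb1 without JAML-negative A (0.03) and without JAML-positive B (0.05), Dnaja1 without JAML-negative A (0.03), Hsph1 without JAML-positive B (-0.14), and Hspe1 without JAML-negative A (0.22) and without JAML-positive B (0.18). With 1 library left out, Hspa8 ranged from -0.06 to 0.12, Dnajb1 from -0.14 to 0.05, Dnaja1 from -0.12 to 0.03, Hsph1 from -0.14 to 0.63 and Hspe1 from -0.29 to 0.22. The cause was not tested. The members' median log2 fold change of -0.01 became -0.04 with library totals only, 0.03 with Hspa1a and Hspa1b summed, and -0.07 to 0.08 with 1 library left out. Fits on 3 libraries assume that the lone library varies like those of the other group. The log2 ratio of the members' summed CPM was 0.11, and 0.08 with library totals only. Genes past the threshold numbered 0 with edgeR, 2 with no filter on low counts and 885 with DESeq2 (536 higher and 349 lower in JAML-positive cells), and 0 under the other 12 alternatives, among them the earlier edgeR method, which had been run first and was made an alternative after seeing the data. Deviations of same-letter libraries correlated at r = -0.02 over 8484 genes, so no effect of the letter shared over many genes was seen. Whether same-letter libraries come from the same animal or sort cannot be told from this correlation. A fit with the replicate letter as a block gave 0 members and 0 genes past the threshold, and 0.23 for Hsp90ab1 (adjusted p = 0.918).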
